A study of Capra hircus with 2 samples.

Results

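The insulin-like growth factor (IGF) genes described here are the ligands IGF1 and IGF2, the receptor IGF1R and the binding proteins IGFBP3, IGFBP5 and IGFBP6. They were taken by symbol, 6 of the 27137 features of the deposited matrix, and their goat gene identifiers are 100860838 for IGF1, 100861277 for IGF2, 100861165 for IGF1R, 102174541 for IGFBP3, 100860950 for IGFBP5 and 102180462 for IGFBP6. The study compared skin of the shoulder of 2 healthy Liaoning cashmere goats in anagen, the growth phase of the hair cycle, 1 with coarse fibre (CT-LCG) and the other with fine fibre (FT-LCG). Each goat gave 1 library of single cells, made with the 10x Genomics droplet kit, which counts RNA molecules by a short random tag, the unique molecular identifier (UMI). GEO's labels leave the type of each goat open, so the type of each cell was taken from the deposited table of kept cells. With 1 library and 1 goat per type, the fibre type, the goat and the library cannot be told apart, no difference has a replicate behind it, and none was tested.

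IGF1 and IGF2 are small secreted proteins related to insulin, and both bind IGF1R, a receptor tyrosine kinase that passes the signal through the IRS adaptors to PI3 kinase and AKT. The binding proteins hold the ligands in the fluid around cells, where they lengthen their life and limit or release them for the receptor, and IGFBP6 binds IGF2 in preference to IGF1. In hair follicles the dermal papilla, a small body of mesenchymal cells at the follicle base, is a known source of IGF1 for the keratinocytes above it, which carry the receptor.

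The kept cells, 3443 from CT-LCG and 9608 from FT-LCG, were grouped into 16 classes by clustering that left out every gene of the IGF pathway, and classes were called after marker lists. The stromal classes were small. For CT-LCG and FT-LCG in that order, the dermal papilla-like class had 65 and 28 cells and the blood endothelial-like class had 64 and 144. The fibroblast-like (8 and 29 cells), mural-like (9 and 29) and lymphatic endothelial-like (4 and 26) classes had under 20 cells in CT-LCG, so their CT-LCG values rest on a few cells. The dermal papilla-like class was led by COCH, RSPO3 and SPON2, and RSPO3, WIF1, HHIP, ALX4 and BMP3 of its 10 markers had at least 10 UMIs, while CORIN was at 0 in both libraries. IGF2 was among the 10 leading genes of that class by fold, although it took no part in the clustering. A finer division, described below, placed 21 of the 65 and 17 of the 28 cells of that class in a part whose markers matched fibroblast. Of the fibroblast list, only COL6A1 was among the 10 leading genes of that part. The 2 libraries thus differ in the make-up of this class, and each of its ratios compares unlike mixtures. The fibroblast-like class was led by COL1A1, COL1A2 and COL3A1. A cluster led by CXCL14, TAGLN and ELOVL3 among its named genes held markers of several types and is called the mixed CXCL14-led cluster. It was counted as epithelial throughout. That includes a contractile part of 107 and 287 cells, with MYH11, TAGLN, CNN1 and ACTA2 of the mural marker list among its leading genes. Another 2 epithelial clusters stayed without a name. Keratinocyte classes held most cells, as in skin. Median depth per cell was 2314 UMIs for CT-LCG and 6121.5 for FT-LCG, and 11 barcode sequences were shared by kept cells of both libraries. A level below is the number of UMIs of a gene per 10000 UMIs of its class in that library, followed in parentheses by its exact Poisson 95% interval, and all intervals cover counting error only.

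**Figure D1:**
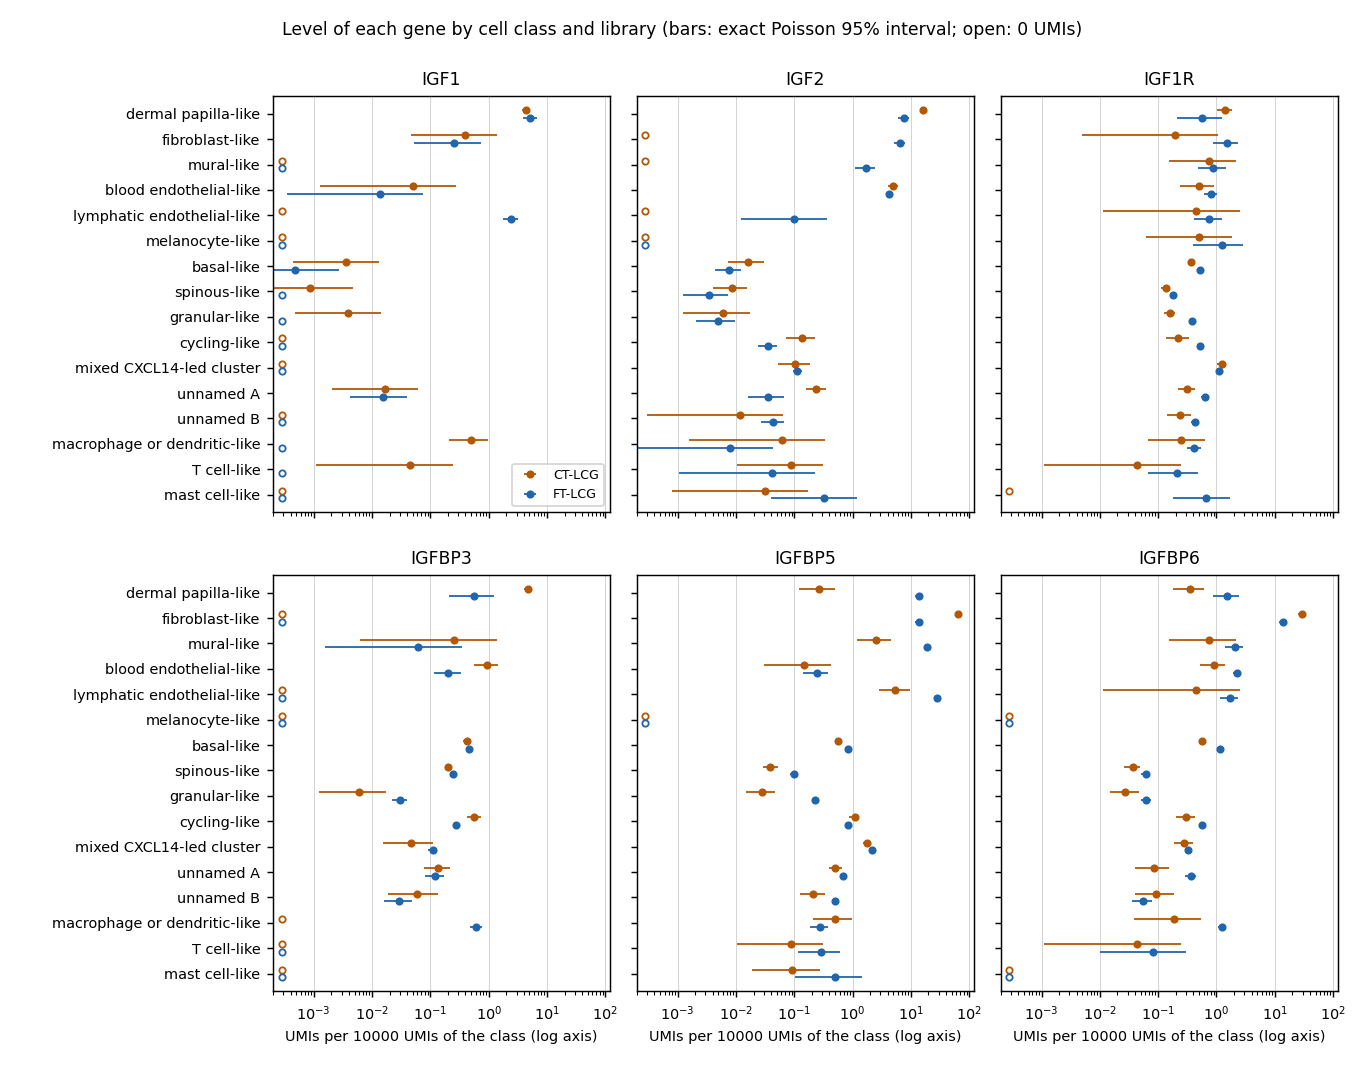
Level of each gene in UMIs per 10000 UMIs of the class (log axis) for 16 cell classes, with CT-LCG in brown and FT-LCG in blue, exact Poisson 95% intervals as bars and open circles for classes with 0 UMIs. IGF1 and IGF2 stand high in the dermal papilla-like class, at 4.35 and 16.0 in CT-LCG, while IGF1R has UMIs in nearly every class.

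IGF1 RNA was found almost wholly in stromal cells. In CT-LCG the stromal classes, 4.36% of the cells, held 90.5% (85.0 to 94.5) of the 168 UMIs of IGF1, and in FT-LCG, where they were 2.66% of the cells, they held 95.5% (89.9 to 98.5) of 112. The level in the dermal papilla-like class was 4.35 (3.68 to 5.11) in CT-LCG and 5.19 (3.91 to 6.75) in FT-LCG. These intervals overlapped, with a log2 ratio of FT-LCG to CT-LCG of 0.25 (-0.22 to 0.71). As a mean over cells the levels were 4.66 and 3.89 and the ratio turned to -0.26, and 2 parts of the class described below went opposite ways. IGF1 had a UMI in 41 of 65 dermal papilla-like cells in CT-LCG and in 12 of 28 in FT-LCG. After each cell was thinned to 1000 UMIs, which left out 6 cells of FT-LCG and none of CT-LCG, the shares were 23.1% and 31.8%. Of thinned granular-like cells, keratinocytes of the upper epidermis that served as background, 0 of 301 and 0 of 1138 had a UMI. Their median depths, 14831.5 and 11021.5 UMIs, were above the 5003 and 2518.5 of the dermal papilla-like class. This background, here and below, may therefore be too low for shallower cells. In an epithelial cluster without a name, at median depths of 1078 and 1109, IGF1 was at 0.0170 and 0.0156.

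The other stromal class with IGF1 was lymphatic. In FT-LCG, lymphatic endothelial-like cells, marked by CCL21, PROX1 and MMRN1, had a level of 2.38 (1.75 to 3.15), with a UMI in 14 of 26 cells, and 1 cell held 39.6% of these 48 UMIs. In CT-LCG none of the 4 such cells had a UMI, and the exact interval of their level ran up to 1.67. No fold is given, since the FT-LCG level rests so far on 1 cell. Lymphatic endothelial-like cells held 42.9% of the IGF1 UMIs of FT-LCG and the dermal papilla-like cells 49.1%. Blood endothelial-like cells, by contrast, had 1 UMI of IGF1 in each library over 64 and 144 cells. Collagen-rich fibroblast-like cells had 2 and 3 UMIs. In the finer division, a COCH-led part that also matched fibroblast had 41 UMIs over 26 cells and 9 over 17. Most of its cells were counted as dermal papilla-like. Macrophage or dendritic-like cells had 8 UMIs in CT-LCG, a level of 0.491 (0.212 to 0.967), and none in FT-LCG. Among the 12 classes with at least 20 cells in each library, the dermal papilla-like class had the highest level, and its intervals did not overlap those of the next class.

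IGF2 was found in dermal papilla-like and blood endothelial-like cells in both libraries. In the dermal papilla-like class its level was 16.0 (14.7 to 17.4) in CT-LCG, with a UMI in 62 of 65 cells, and 7.54 (5.98 to 9.39) in FT-LCG, with a UMI in 14 of 28 cells. The 2 intervals were apart, and CT-LCG was 2.12-fold higher, a log2 ratio of -1.08 (-1.44 to -0.74). Thinned to 1000 UMIs, 73.8% of the CT-LCG cells and 40.9% of the FT-LCG cells had a UMI. In FT-LCG 1 cell held 23.8% of the UMIs of the class, against 6.03% in CT-LCG.

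In blood endothelial-like cells the level of IGF2 was 5.01 (4.08 to 6.08) in CT-LCG and 4.19 (3.74 to 4.69) in FT-LCG, which overlapped, with a log2 ratio of -0.26 (-0.58 to 0.08). Markers of other cells also differed between the libraries in this class. The 4 inner root sheath markers, of which 4 were detected in each library, summed to 11.1 UMIs per 10000 for CT-LCG and 193 for FT-LCG, and among them TCHH was at 4.41 and 94.3 and KRT25 at 3.72 and 72.3. The 7 spinous markers summed to 237 and 74.9 and the 6 basal markers to 24.0 and 55.2, all detected in both libraries, while the 8 endothelial markers summed to 46.2 and 53.8. The part of this in the blood endothelial-like ratios of IGF2, IGF1R, IGFBP3, IGFBP5, IGFBP6 and the wider list was not tested. The UMIs of IGF2 were spread unevenly within the class. A finer division set apart a cluster led by SPARCL1 and PLVAP among its named genes, with 7 and 32 cells, where the level was 20.8 and 9.07, against 0.930 and 1.82 in the ACKR1-led cluster of 44 and 89 cells; ACKR1 marks the endothelium of venules. In the SPARCL1 and PLVAP-led cluster of CT-LCG, 1 cell held 63.2% of the UMIs. Lymphatic endothelial-like cells of FT-LCG had 2 UMIs of IGF2, against 48 of IGF1, and the 4 such cells of CT-LCG had none of either.

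Fibroblast-like and mural-like cells had IGF2 only in FT-LCG, at 6.40 (5.05 to 8.0) and 1.68 (1.11 to 2.45), while the 8 and 9 cells of CT-LCG had none. No fold is given, since CT-LCG had so few of these cells. The lower limits of the exact log2 ratio intervals were 3.13 and 0.77, which cover counting error only. In the fibroblast-like cells of FT-LCG 8 of 29 cells had a UMI and 1 cell held 41.6% of the UMIs. The COCH-led part of the finer division, which also matched fibroblast by its markers, had IGF2 in both libraries. Its level was 9.93 (7.92 to 12.3) over 26 cells of CT-LCG and 5.00 (3.01 to 7.81) over 17 of FT-LCG. Most of its cells were counted as dermal papilla-like, so the absence in CT-LCG covers the 8 collagen-rich cells only. The sources of IGF2 RNA thus differed in weight between the libraries. The dermal papilla-like class held 75.2% of the IGF2 UMIs of CT-LCG and 11% of those of FT-LCG, and the blood endothelial-like class 13.9% and 43.0%. These shares move with the number of cells captured in each class, which differed as given above. In the main keratinocyte classes IGF2 was at or below the level of barcodes that the authors did not keep, 0.252 in CT-LCG and 0.221 in FT-LCG, which may hold free RNA, poor cells or both. The mixed CXCL14-led cluster had 0.104 and 0.114, also below it, although with 1168 cells it held 18.4% of the IGF2 UMIs of FT-LCG.

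**Figure D2:**
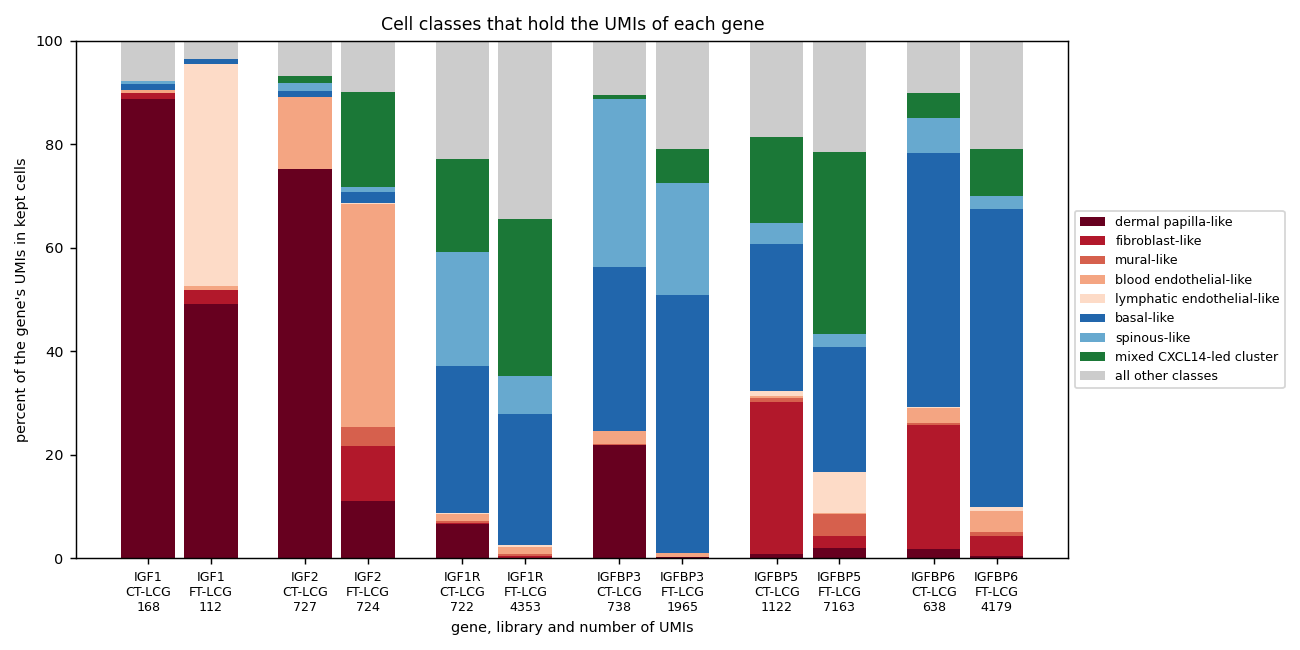
Percent of the UMIs of each gene, in kept cells, that each cell class holds, by library, with the number of UMIs under each bar. Stromal classes, in shades of red, hold 90.5% and 95.5% of IGF1 and 8.73% and 2.60% of IGF1R in CT-LCG and FT-LCG, beside 2.36% and 1.56% of all UMIs.

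The receptor IGF1R was found in both compartments. Epithelial classes held 90.3% (87.9 to 92.4) of its UMIs in CT-LCG and 95.8% (95.2 to 96.4) in FT-LCG. They held 94.9% and 96.5% of all UMIs, which lie above these intervals. By level IGF1R was higher in the stromal classes together, at 0.957 for CT-LCG and 0.85 for FT-LCG, than in the epithelial classes together, at 0.246 and 0.506. Of the single classes, the mixed CXCL14-led cluster stood first of the 12 classes, at 1.22 (1.02 to 1.45) and 1.13 (1.07 to 1.19), and its intervals overlapped those of the dermal papilla-like class, the next in order. Basal-like keratinocytes had 0.371 (0.322 to 0.426) and 0.529 (0.498 to 0.561), and granular-like keratinocytes 0.157 (0.125 to 0.196) and 0.383 (0.353 to 0.414). Barcodes not kept had 0.363 and 0.602, so the basal-like level was close to what these barcodes hold and the level of the mixed cluster was above it. Thinned to 1000 UMIs, 10.4% and 13.6% of the cells of the mixed cluster had a UMI, against 1.33% and 5.36% of granular-like cells. Before thinning, the shares were 27.3% and 48.6% against 18.2% and 33.1%, at median depths of 1726.5, 4924.5, 14831.5 and 11021.5 UMIs in that order.

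Divided again, the mixed cluster gave 5 parts, and IGF1R was found in each. A part led by ELOVL3 and FAR2, genes of sebaceous lipid synthesis, had 1.24 and 1.11 over 58 and 382 cells. A part led by CXCL14, BGN and KRT19, with LGR5 and SFRP1 among its leading genes, had 1.66 and 1.30 over 19 and 311 cells. A contractile part, led by ACTG2 and MYH11, had 0.417 over 107 cells in CT-LCG and 2.46 over 287 cells in FT-LCG, the widest gap of the 3 parts with the most cells. Median depth in that part was 1162 UMIs for CT-LCG and 1169 for FT-LCG. It held 6 and 119 of the IGF1R UMIs that are counted as epithelial above.

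Dermal papilla-like cells had UMIs of the receptor as well as of the ligands, at 1.4 (1.03 to 1.86) in CT-LCG, with a UMI in 30 of 65 cells, and 0.566 (0.208 to 1.23) in FT-LCG, with a UMI in 6 of 28 cells. The FT-LCG level was under the 0.602 of barcodes not kept, and the CT-LCG level above their 0.363. The log2 ratio was -1.31 (-2.83 to -0.08), from 48 and 6 UMIs, and in the undivided fibroblast-led cluster it was -0.13 (-0.70 to 0.45). In blood endothelial-like cells the level was 0.496 (0.238 to 0.912) and 0.809 (0.618 to 1.04), with overlapping intervals. FT-LCG was higher than CT-LCG in 6 of the 7 epithelial classes, with log2 ratios of 0.51 (0.29 to 0.73) in the basal-like, 1.24 (0.61 to 1.94) in the cycling-like and 1.28 (0.95 to 1.64) in the granular-like class, and -0.12 (-0.38 to 0.15) in the mixed cluster, the exception. Melanocyte-like cells, 10 and 9 in number, had 2 and 5 UMIs of IGF1R, and mast cell-like cells had none in the 66 cells of CT-LCG and 4 UMIs in the 25 of FT-LCG. The level in barcodes not kept was also higher in FT-LCG, as given above, and its part in this difference was not tested.

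IGFBP3, which carries IGFs in complex with the acid-labile subunit in blood, differed between the libraries in dermal papilla-like cells. Its level was 4.73 (4.03 to 5.52) in CT-LCG, with a UMI in 40 of 65 cells, and 0.566 (0.208 to 1.23) in FT-LCG, where 2 of 28 cells had 6 UMIs in all. CT-LCG was 8.36-fold higher, a log2 ratio of -3.06 (-4.53 to -1.91), and 1 cell held 83.3% of the FT-LCG UMIs. The ratio was -1.66 with cells thinned to 1000 UMIs and -5.53 without the cell with the most UMIs in each library. Thinned to 1000 UMIs, 27.7% and 4.55% of the cells had a UMI, against 0 of 301 and 4 of 1138 granular-like cells. Blood endothelial-like cells had 0.942 (0.567 to 1.47) in CT-LCG and 0.202 (0.113 to 0.334) in FT-LCG, and 1 cell held 63.2% of the 19 UMIs of CT-LCG. Fibroblast-like and lymphatic endothelial-like cells had no UMI of IGFBP3 in either library. The COCH-led part that matched fibroblast in the finer division had 45 UMIs over 26 cells in CT-LCG and 1 over 17 in FT-LCG.

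Keratinocytes held most IGFBP3 UMIs, and in the basal-like and spinous-like classes the libraries were close. The basal-like class had 0.420 (0.368 to 0.478) and 0.469 (0.440 to 0.499), a log2 ratio of 0.16 (-0.05 to 0.37), and the spinous-like class 0.204 (0.179 to 0.231) and 0.242 (0.219 to 0.266). Cycling-like cells were higher in CT-LCG, with a log2 ratio of -1.01 (-1.44 to -0.56), and granular-like cells, with 3 and 49 UMIs, higher in FT-LCG, with 2.34 (0.71 to 4.67). Epithelial classes together held 75.3% of the CT-LCG UMIs of IGFBP3 and 94.9% of those of FT-LCG, and the dermal papilla-like class 22.0% and 0.305%. Macrophage or dendritic-like cells had 79 UMIs in FT-LCG, in 21 of 77 cells, a level of 0.614 (0.486 to 0.766), and none in the 30 cells of CT-LCG. The log2 ratio was 1.74 with CT-LCG put at 3 UMIs, and the lower limit of the exact interval was 1.41. None of the 70 macrophage or dendritic-like cells of FT-LCG that could be thinned to 1000 UMIs kept a UMI of IGFBP3.

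IGFBP5, a binding protein that also attaches to extracellular matrix, was high in fibroblast-like, mural-like and lymphatic endothelial-like cells. Fibroblast-like cells had 63.5 (56.9 to 70.8) in CT-LCG, with a UMI in 8 of 8 cells, and 13.6 (11.6 to 15.8) in FT-LCG, with a UMI in 21 of 29. Mural-like cells, which wrap small vessels, had 2.50 (1.20 to 4.6) and 18.9 (16.9 to 21.2). Lymphatic endothelial-like cells had 5.43 (2.80 to 9.48) over 4 cells and 27.6 (25.4 to 30.0) over 26 cells. CT-LCG was the higher library in the fibroblast-like class, where the log2 ratio of -2.23 (-2.51 to -1.95) became -0.15 with 20 principal components, and FT-LCG in the other 2, and in each of them 1 cell held between 22.0% and 66.7% of the UMIs of a library. Blood endothelial-like cells were low, at 0.149 (0.0307 to 0.435) and 0.243 (0.144 to 0.384).

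In the dermal papilla-like class IGFBP5 was at 0.263 (0.12 to 0.499) in CT-LCG and at 14.0 (11.8 to 16.4) in FT-LCG, a log2 ratio of 5.73 (4.77 to 6.89). The CT-LCG level was under the 0.752 of its barcodes not kept. The FT-LCG value came from 11 of 28 cells, and 1 of them held 41.9% of the 148 UMIs. With 20 principal components in place of 10, without the library correction, or with cells of at least 1000 genes, the class held other cells and the ratio was 0.70, 0.54 and 1.11. The finer division placed these UMIs in 1 part of the class. The RSPO3-led part, with 44 and 11 cells, had 0.228 and 0.294, while the COCH-led part, with 26 and 17 cells, had 0.591 and 38.4. By the marker lists the RSPO3-led part matched dermal papilla and the COCH-led part matched fibroblast. The second match rested on COL6A1 alone among the leading genes, and SPON2 and CRABP1 were among the leading genes of both parts. The 17 FT-LCG cells of the COCH-led part were all from the dermal papilla-like class, as were 21 of its 26 CT-LCG cells. Over the whole dermal papilla-like class the 8 fibroblast markers, collagens among them, summed to 20.9 UMIs per 10000 for CT-LCG and 70.1 for FT-LCG, with all 8 detected in both, and the 10 dermal papilla markers to 32.7 and 16.2, with 7 and 8 detected. The part of this in the IGFBP5 difference, and in the ratios of the other genes in this class, was not tested.

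**Figure D3:**
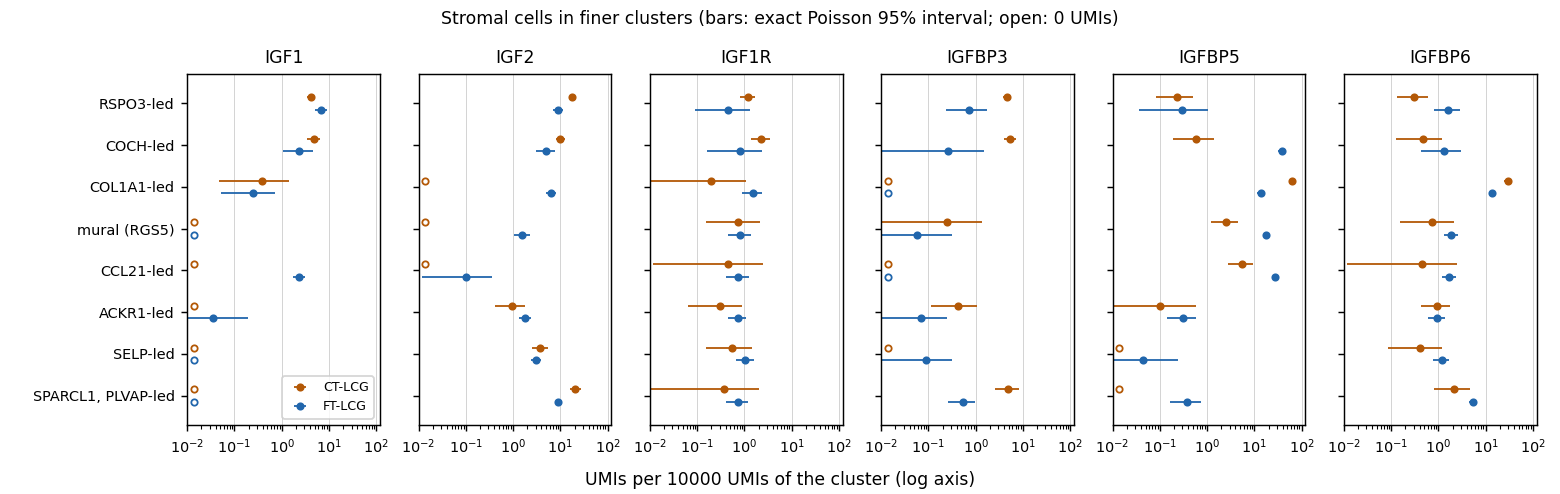
Level of each gene in UMIs per 10000 UMIs of the cluster (log axis) in 8 finer stromal clusters, with CT-LCG in brown, FT-LCG in blue, exact Poisson 95% intervals as bars and open circles at 0 UMIs; bars that reach the left edge go on below it. IGFBP5 of FT-LCG stands at 38.4 in the COCH-led cluster and at 0.294 in the RSPO3-led one, whereas IGFBP3 is lower in FT-LCG in both.

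Within the RSPO3-led part alone the other genes gave log2 ratios of 0.71 (0.18 to 1.22) for IGF1, -1.0 (-1.41 to -0.61) for IGF2, -2.62 (-4.27 to -1.36) for IGFBP3, 2.41 (0.96 to 3.93) for IGFBP6 and -1.42 (-3.77 to 0.26) for IGF1R, with 11 cells in FT-LCG. In the COCH-led part they were -1.03 (-2.26 to 0.03) for IGF1, -0.99 (-1.79 to -0.26) for IGF2, -4.34 (-9.67 to -1.79) for IGFBP3, 1.48 (-0.74 to 3.81) for IGFBP6 and -1.51 (-3.91 to 0.26) for IGF1R. The intervals of IGF1R reached 0 in both parts and that of IGFBP6 in the COCH-led part. In the RSPO3-led part 1 FT-LCG cell held all 5 UMIs of IGFBP3, and 1 held 81.8% of the 11 of IGFBP6. In the COCH-led part FT-LCG had 1 UMI of IGFBP3, and 1 cell held 68.4% of its 19 of IGF2. IGF2 and IGFBP3 had intervals below 0 in both parts, which do not cover such weight of single cells. IGF1 was higher in FT-LCG in the first part and its interval reached 0 in the second.

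Outside the classes counted as stromal, IGFBP5 was found in the mixed CXCL14-led cluster, at 1.75 (1.51 to 2.02) and 2.15 (2.07 to 2.24). In the basal-like class it was at 0.573 (0.512 to 0.640) and 0.832 (0.793 to 0.872). Of the parts of the mixed cluster, the CXCL14, BGN and KRT19-led part had 8.52 over 19 cells and 3.45 over 311 cells, and the contractile part 0.973 and 7.20. The contractile part, counted as epithelial here, held 14 and 349 of the 186 and 2518 UMIs of the cluster. Barcodes not kept had 0.752 and 0.933, so the basal-like levels were under theirs, and the granular-like levels, 0.0275 and 0.229, further under. FT-LCG was the higher library in 10 of the 12 classes with at least 20 cells in each. The log2 ratio was 0.54 (0.36 to 0.71) in the basal-like and 3.05 (2.29 to 3.94) in the granular-like class. Barcodes not kept were also higher in FT-LCG, and their part in these differences was not tested. CT-LCG was higher in the cycling-like class, with -0.38 (-0.68 to -0.07), and in the macrophage or dendritic-like class, with -0.85 (-1.98 to 0.47). Median depths in CT-LCG and FT-LCG were 1815 and 12815 UMIs in the first of these classes and 2641 and 9652 in the second.

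IGFBP6, the binding protein with a preference for IGF2, was highest in fibroblast-like cells, at 29.4 (24.9 to 34.4) in CT-LCG and 13.7 (11.7 to 16.0) in FT-LCG, and 1 of the 8 CT-LCG cells held 55.9% of the UMIs. The log2 ratio of -1.10 (-1.42 to -0.77) became -0.47 without the cell with the most UMIs in each library and 0.08 with 20 principal components. In fibroblast-like cells IGFBP5 and IGFBP6 were found together, in 7 of 8 of CT-LCG and 16 of 29 of FT-LCG. Singly, IGFBP5 was in 8 and 21 of these cells and IGFBP6 in 7 and 19. Blood endothelial-like cells had 0.892 (0.529 to 1.41) and 2.24 (1.91 to 2.61) of IGFBP6, a log2 ratio of 1.33 (0.62 to 2.12) in a class where the inner root sheath markers were also higher in FT-LCG, and dermal papilla-like cells 0.350 (0.181 to 0.612) and 1.51 (0.862 to 2.45), a log2 ratio of 2.11 (0.93 to 3.32) from 12 and 16 UMIs. In the SPARCL1 and PLVAP-led endothelial cluster, which also had the highest IGF2 of the 3 blood endothelial clusters, IGFBP6 was at 2.19 and 5.37.

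Basal-like keratinocytes held 49.2% and 57.5% of the IGFBP6 UMIs, beside 19.9% and 24.4% of all UMIs. Their levels were 0.566 (0.505 to 0.632) and 1.15 (1.11 to 1.20), with a log2 ratio of 1.03 (0.86 to 1.20). Spinous-like and granular-like cells, which lie above them in the epidermis, had between 0.0275 and 0.0622. Thinned to 1000 UMIs, 5.67% and 8.39% of the basal-like cells had a UMI, against 0 of 301 and 0.967% of granular-like cells. FT-LCG was higher in 6 of 7 epithelial classes, and the exception was 1 of the clusters without a name, at 0.0931 and 0.0543. Barcodes not kept had 0.278 and 0.361 of IGFBP6, and their part in these differences was not tested.

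**Figure D4:**
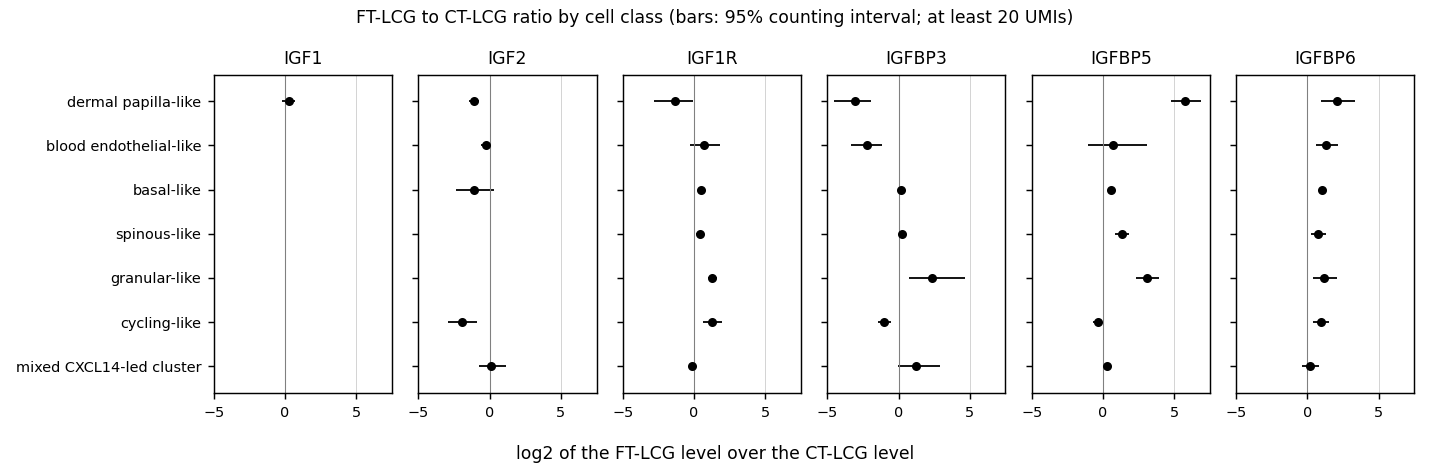
log2 ratio of the FT-LCG level to the CT-LCG level of each gene in 7 classes, for genes with at least 20 UMIs over both libraries, with 95% counting intervals as bars and a line at 0. IGFBP3 lies at -3.06 in the dermal papilla-like and -2.22 in the blood endothelial-like class and at 0.16 in the basal-like class.

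Several of the genes were seen together in dermal papilla-like cells. In CT-LCG 39 of 65 cells had UMIs of both ligands, 39 of 65 of IGF2 and IGFBP3 and 29 of 65 of IGF2 and IGF1R. IGF2 was in 62 of these 65 cells, so the joint counts follow those of IGF1 (41), IGFBP3 (40) and IGF1R (30) alone. In FT-LCG, with a median depth of 2518.5 UMIs against 5003 in CT-LCG, 9 of 28 cells had both ligands, 0 of 28 had IGF2 and IGFBP3 and 4 of 28 had IGF2 and IGF1R. There IGF2 was in 14 cells, IGF1 in 12, IGFBP3 in 2 and IGF1R in 6. In lymphatic endothelial-like cells of FT-LCG 13 of 26 had IGF1 and IGFBP5, with IGF1 in 14 and IGFBP5 in 19. Whether any 2 genes go together beyond their single counts was not tested.

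Set against all genes with at least 20 UMIs in the dermal papilla-like class, 3 of the 6 genes (IGF2, IGFBP3 and IGF1R) were at least 2-fold higher in CT-LCG, where 15.0% of 3416 genes were, and 2 (IGFBP5 and IGFBP6) were at least 2-fold higher in FT-LCG, where 8.34% were. The median log2 ratio of those genes was -0.07. In the blood endothelial-like class 5 of the 6 genes had 20 UMIs. IGFBP3 was at least 2-fold higher in CT-LCG, as were 8.59% of 5355 genes, and IGFBP6 in FT-LCG, as were 10.0%. Taken before division, the fibroblast-led cluster gave another picture for IGF1, with 3.12 (2.64 to 3.66) in CT-LCG and 1.27 (0.963 to 1.63) in FT-LCG, a log2 ratio of -1.30 (-1.76 to -0.86). Dermal papilla-like cells were 65 of the 104 cells of that cluster in CT-LCG and 28 of 109 in FT-LCG, and within them the ratio of IGF1 was 0.25. Before division, 3 of the 6 genes (IGF1, IGF2 and IGFBP3) were at least 2-fold higher in CT-LCG, where 10.9% of 5988 genes were, and none in FT-LCG, where 8.62% were.

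**Figure D5:**
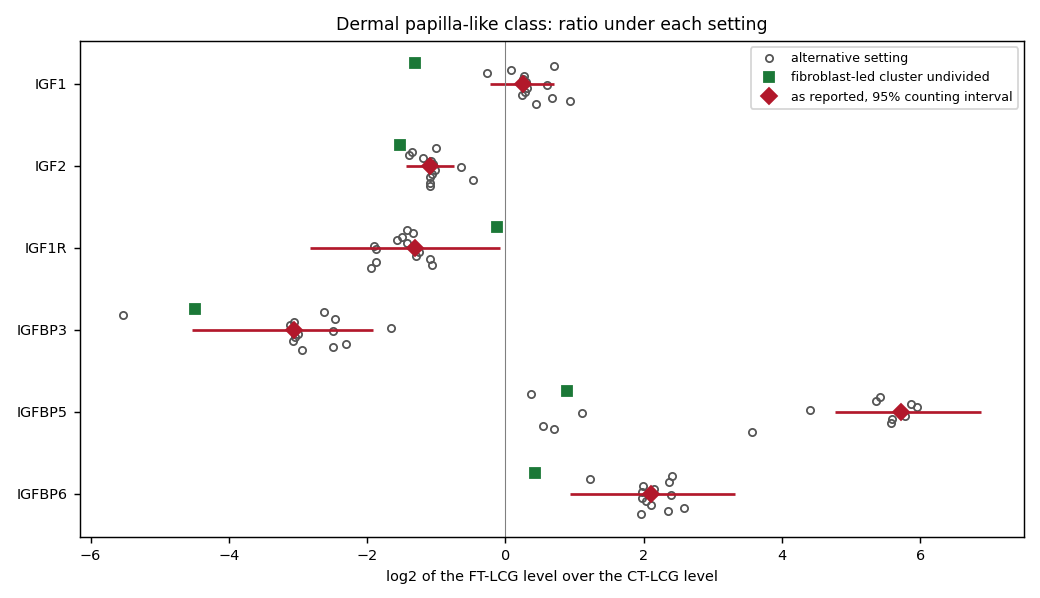
log2 ratio of the FT-LCG level to the CT-LCG level of each gene in the dermal papilla-like class as reported (red, with its 95% counting interval), under each alternative setting (grey circles) and in the undivided fibroblast-led cluster (green squares). IGF2, IGFBP3 and IGF1R stay below 0 and IGFBP5 ranges from 0.37 to 5.96.

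The wider list of 40 IGF pathway genes had 27 with at least 100 UMIs in the kept cells, while INS, INSRR, IGFBP1, IGFBPL1, IRS4 and IGF2BP1 had none. In the dermal papilla-like class 16 of the 40 reached 20 UMIs, the 6 genes above included, and their median log2 ratio was -0.68, against the -0.07 of all 3416 genes. The sign of that median turned with a minimum of 100 UMIs, to 0.61 over the 6 genes of the list that reached it, against -0.09 over all 588. Of the 16 genes with at least 20 UMIs, 6 were at least 2-fold higher in CT-LCG, where 15.0% of all 3416 were. These were IRS2, GRB10 and FOXO3 beside IGF2, IGFBP3 and IGF1R. In FT-LCG 3 were at least 2-fold higher (IGFBP7 beside IGFBP5 and IGFBP6), where 8.34% of all were. In the blood endothelial-like class 21 reached 20 UMIs, with a median of 0.23 against -0.00359 over all 5355 genes. There 5 (INSR, IGFBP3, IRS2, PIK3R1 and FOXO3) were at least 2-fold higher in CT-LCG, as were 8.59% of all genes. Another 2 (IGFBP6 and IGFBP7) were at least 2-fold higher in FT-LCG, as were 10.0% of all genes.

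Among the other binding proteins and their regulators, IGFBP7, a low-affinity relative that vessels express, was at 51.5 and 58.4 in mural-like cells, at 6.74 and 26.0 in blood endothelial-like cells, with a log2 ratio of 1.95 (1.69 to 2.21), and at 2.37 and 9.90 in dermal papilla-like cells, with 2.07 (1.63 to 2.50). HTRA1, a secreted protease that can cut binding proteins, was at 16.8 and 7.15 in fibroblast-like cells, where IGFBP6 was highest, and at 3.27 and 6.41 in dermal papilla-like cells. STC1, an inhibitor of the pappalysin proteases, was at 6.0 and 6.38 in blood endothelial-like cells, a log2 ratio of 0.09 (-0.20 to 0.39). IGFBP2, IGFBP4, IGFALS, PAPPA, PAPPA2, STC2 and IGF2BP3 had under 100 UMIs each.

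Of the other receptors, IGF2R, which takes up IGF2 for breakdown, was at 0.397 and 0.647 in blood endothelial-like cells. In dermal papilla-like cells it was at 0.117 and 0.471, from 4 and 5 UMIs, with a log2 ratio of 2.01 (-0.20 to 4.35). INSR, the insulin receptor, was at 0.595 and 0.243 in blood endothelial-like cells, from 12 and 18 UMIs. It was at 0.555 and 0.471 in dermal papilla-like cells, from 19 and 5 UMIs. IRS2, an adaptor of IGF1R, was at 2.57 and 0.943 in dermal papilla-like cells, a log2 ratio of -1.45 (-2.56 to -0.50), from 88 and 10 UMIs. FOXO3, a transcription factor that AKT holds out of the nucleus, was at 1.75 and 0.377 there, from 60 and 4 UMIs. Its log2 ratio was -2.22 (-4.14 to -0.79). GRB10, an adaptor that restrains the receptor, was at 0.759 and 0.283 there, from 26 and 3 UMIs, a log2 ratio of -1.42 (-3.79 to 0.28). The adaptor GRB2 was at 1.31 and 0.754, from 45 and 8 UMIs, and the adaptor SHC1 at 0.321 and 0.471, from 11 and 5. PIK3R1, a regulatory subunit of PI3 kinase, was at 1.52 and 0.849, from 52 and 9. The ratio intervals of GRB2, SHC1 and PIK3R1 all held 0. AKT1 was at 1.29 and 1.51, with a log2 ratio of 0.23 (-0.69 to 1.09).

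Over all kept cells, IRS1 was at 0.189 and 0.0724, PIK3CA at 0.435 and 0.249, AKT2 at 0.171 and 0.166, FOXO1 at 1.74 and 0.853 and MTOR at 0.0857 and 0.0861 in CT-LCG and FT-LCG. GHR, the growth hormone receptor, was at 0.0197 and 0.0375, and IGF2BP2, which binds IGF2 mRNA, at 0.00323 and 0.0258. The CT-LCG level of IGF2BP2 rested on 9 UMIs. Keratinocytes hold most UMIs behind these levels, and their classes differed in weight between the libraries. The spinous-like class held 42.3% of all UMIs of CT-LCG and 20.5% of those of FT-LCG, and the mixed CXCL14-led cluster 3.81% and 13.7%. The part of this in the differences was not tested.

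The genes most alike in pattern were found by Pearson's r of log2(level + 0.1) over 12 classes in 2 libraries, 24 points that share libraries and depths, among 11731 other genes with at least 200 UMIs. For IGF1 they were PCOLCE (r = 0.96), EFEMP2 (r = 0.95) and FBLN1 (r = 0.95), genes of the extracellular matrix. Of these classes, only the dermal papilla-like class had IGF1 above 0.491. For IGF2 they were COL15A1 (r = 0.96), LOC102169699 (r = 0.96) and ENPP2 (r = 0.96), of which COL15A1 encodes a basement membrane collagen. For IGF1R they were DHRS3 (r = 0.86), GLI3 (r = 0.85) and TUSC3 (r = 0.85), of which GLI3 is a transcription factor of Hedgehog signalling. For IGFBP3 they were RSPH3 (r = 0.82), TMEM117 (r = 0.82) and CEP112 (r = 0.81), for IGFBP5 FIBIN (r = 0.88), ENKD1 (r = 0.87) and PTPRS (r = 0.85), and for IGFBP6 PTRF (r = 0.88), CRIM1 (r = 0.85) and ITGB4 (r = 0.85), of which ITGB4 is an integrin of basal keratinocytes.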

How the data were processed

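Single cells of shoulder skin were captured with the 10x Genomics 3' kit and, per the submitters' processing notes and the study's methods, turned by the authors into UMI counts with Cell Ranger and filtered and clustered with Seurat 3.1.1. The header of the matrix names software version 3.0.2. The deposited matrix holds raw counts for 27137 features in 17299 barcodes, and a deposited table lists the 13051 cells that the authors kept, above 500 genes, with the library of each. Barcodes the authors did not keep, whose median depth in UMIs was 716 for CT-LCG and 607 for FT-LCG, may hold free RNA, poor cells or both, and were used only for comparison. The processing notes list human and mouse builds, the goat build is not given in the sources used here, and no coordinates are printed. Of the features, 27103 had an identifier in the RefSeq gene table, the 6 genes among them. The UMIs of kept cells number 27890472 for CT-LCG and 85400323 for FT-LCG.

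Counts were scaled to 10000 per cell and logged, 2000 variable genes were chosen within each library without the IGF pathway list, and 10 principal components were corrected for library by the Harmony method, written in numpy 2.4.6. A shared neighbour graph of 20 neighbours was divided with leidenalg 0.10.2 at the lowest resolution with at least 13 clusters (0.3), and the 425 cells of clusters led by stromal markers were divided again at 0.2, where they gave 7 clusters that include the melanocyte-like cells. A cluster could take the name of a marker list with at least 3 markers detected at 10 UMIs or more and raised on average against all other cells. Of such lists it took the one with the most markers among its 10 leading genes, and no name if none had any there. The name was set aside where the leading genes went against it, as in the mixed CXCL14-led cluster. Levels carry exact Poisson intervals, shares exact Clopper-Pearson intervals and ratios exact conditional intervals, from scipy 1.17.1. A library at 0 was put at 3 counts for a ratio, beside which the lower limit of the exact interval is given. Cells were thinned to 1000 UMIs for shares of cells. Scrublet, in scanpy 1.11.5, marked 0 cells in each library and so had not worked, no doublets were removed, and removing the 5% of cells with the highest score (158 in CT-LCG and 422 in FT-LCG, of which 16 and 27 were stromal) was an alternative. The ratio script was tested on simulated data.

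No test was run, since each type has 1 library. The 6 genes, the wider list and the markers were chosen with earlier results of these data known. The text names the 6 genes, the genes of the wider list with at least 100 UMIs, except some that are not reported here, and the 3 genes most alike to each. A 2-fold difference was counted over genes with at least 20 UMIs in both libraries together. A finer division of the stroma, the undivided fibroblast-led cluster and the division of the mixed cluster were added after seeing the data.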

Additional observations from a re-analysis of the deposited data

Results flagged for a closer look

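The FT-LCG to CT-LCG ratio of IGFBP3 had opposite signs in different cell classes, each at least 2-fold and with a counting interval apart from 0. CT-LCG was higher in the dermal papilla-like (log2 ratio -3.06), blood endothelial-like (-2.22) and cycling-like (-1.01) classes. FT-LCG was higher in the granular-like class (2.34) and the macrophage or dendritic-like class. In the latter CT-LCG had 0 UMIs, and the ratio was 1.74 with CT-LCG put at 3, with a lower limit of 1.41. The granular-like value rests on 3 UMIs in CT-LCG, and 1 cell held 63.2% of the blood endothelial-like UMIs of CT-LCG.

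The ratio of IGF1R was also opposite between classes, with CT-LCG higher in the dermal papilla-like class (-1.31, from 48 and 6 UMIs, with intervals that reached 0 in both of its finer parts, and -0.13 in the undivided fibroblast-led cluster) and FT-LCG higher in the cycling-like (1.24) and granular-like (1.28) classes and in a cluster without a name of low depth (1.01). With 1 library per type, neither difference between classes was tested.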

How the results depend on the processing

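Of 162 recomputed FT-LCG to CT-LCG log2 ratios, 135 stayed within their counting interval and 26 left it with the sign kept or with an interval that held 0 from the start. Only 1 ratio whose interval lay apart from 0 changed sign, that of IGFBP6 in fibroblast-like cells, 0.081 with 20 principal components. No ratio or stromal share moved under a higher resolution or another random seed. In the dermal papilla-like class IGFBP5 moved most, to 3.57 with 3000 variable genes, 0.70 with 20 principal components, 0.54 without Harmony, 1.11 with cells of at least 1000 genes, 4.41 with thinned cells and 0.37 with the stroma in at least 8 clusters, where the COCH-led cells left the class. There IGF1 moved to 0.94 with 20 principal components and -0.26 as a mean over cells, IGF2 to -0.47 without Harmony and -0.64 with cells of at least 1000 genes, and IGFBP3 to -1.66 with thinned cells and -5.53 without the cell with the most UMIs in each library. In the undivided fibroblast-led cluster, which mixes other cells into the class, the ratios were -1.30 for IGF1, -1.53 for IGF2, 0.89 for IGFBP5 and 0.43 for IGFBP6. In fibroblast-like cells IGFBP5 moved to -1.70 with 3000 variable genes, -0.15 with 20 principal components, -1.65 without Harmony, -1.64 with cells of at least 1000 genes and -0.33 with at least 8 clusters, where the COCH-led cells joined the class, and IGFBP6 to -0.47 without the cell with the most UMIs and -0.091 with at least 8 clusters. In blood endothelial-like cells IGFBP3 moved to -3.87 and IGF1R to 2.53 with thinned cells, and IGF2 to 0.16 without the cell with the most UMIs. As means over cells, the dermal papilla-like levels were 3.89 for IGF1, 5.78 for IGF2 and 17.3 for IGFBP5 in FT-LCG and 1.91 for IGF1R in CT-LCG, and the fibroblast-like level of IGFBP6 in CT-LCG was 22.4. Apart from the changes of class membership named here, the cause was not tested.

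Of 120 stromal shares, 95 stayed within their interval. With thinned cells the share was 96.2% in CT-LCG and 86.4% in FT-LCG for IGF1, 80.2% in CT-LCG for IGF2, 39.5% and 2.17% for IGFBP3, 29.3% and 20.0% for IGFBP5, 16.2% in FT-LCG for IGFBP6, and 11.7% and 4.66% for IGF1R. With cells of at least 1000 genes it was 99.0% in FT-LCG for IGF1, 93.9% in CT-LCG for IGF2, 35.5% and 19.5% for IGFBP5 and 12.4% in FT-LCG for IGFBP6. With 10% taken off as free RNA it was 93.4% and 74.2% for IGF2 and 35.4% and 18.3% for IGFBP5. In FT-LCG, IGFBP5 had 18.6% and IGFBP6 12.3% with 3000 variable genes, IGF2 64.4% and IGFBP5 12.3% with 20 principal components, IGFBP6 10.9% with the pathway genes allowed, and IGFBP5 15.7% without the cells of highest Scrublet score. With a minimum of 100 UMIs fewer genes were counted. For dermal papilla-like cells, 2 of 6 pathway genes passed 2-fold toward CT-LCG, beside 11.1% of all 588 genes. Toward FT-LCG 2 of the 6 passed, beside 7.65% of the 588. For blood endothelial-like cells, 0 of 8 pathway genes passed 2-fold toward CT-LCG, beside 4.90% of all 1265 genes. Toward FT-LCG 2 of the 8 passed, beside 6.56% of the 1265. With 1 added before the logarithm, between 0 and 2 of the 3 genes most alike to each gene remained, and none of those of IGFBP3. No paired analysis was possible because each type has 1 library. The dermal papilla-like class had 28 cells in FT-LCG, and the fibroblast-like, mural-like and lymphatic endothelial-like classes had at most 9 cells in CT-LCG, which limits every stromal ratio.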
